A study of Homo sapiens with 12 samples.

Results

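The effect of lenalidomide plus dexamethasone (LenDex) was read on the arrays of ARP1, 1 of the 3 human multiple myeloma cell lines of the series. By the rule used, 4 of the 12 arrays were taken, all those labelled ARP1. The first was from control cells and the second from cells given 0.01 µM of CPI203. The third had the LenDex mixture of 5 µM lenalidomide and 0.05 µM dexamethasone, and the fourth all 3 drugs (Combo). Treatment lasted 6 h according to the treatment protocol. The 2 differences formed were LenDex minus control and Combo minus CPI203, so that both arms of a pair had the same CPI203 status. Each treatment had 1 array, and the labels do not say whether the arrays came from separate cultures. The labels give no genetic alteration of ARP1, and the control cells carried no drug. No array had lenalidomide or dexamethasone by itself, so the effects of the 2 drugs cannot be told apart.

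Dexamethasone is a synthetic glucocorticoid. It binds the glucocorticoid receptor, encoded by NR3C1, which moves to the nucleus and switches on genes that hold its response elements, and in myeloma cells it promotes cell death. Lenalidomide binds cereblon, the substrate receptor of a ubiquitin ligase, so that the ligase marks Ikaros (IKZF1) and Aiolos (IKZF3) for destruction, factors of lymphoid cells that support IRF4 and MYC. It acts first on protein levels, which these arrays do not measure. CPI203 inhibits BET bromodomain proteins, which read acetylated histones.

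Values are log2 probe set levels, so a difference of 1 is a 2-fold change. Changes are given for each pair and as their mean with the standard error (SE) from limma. With n = 1 array per treatment, the error measures how far the 2 pairs of a line differed, pooled over the 3 lines, and assumes that CPI203 and LenDex add on the log2 scale. Moderation in limma also draws this error toward the spread typical of all genes, with 3.75 prior against 3 residual degrees of freedom. A gene was called at a limma adjusted p under 0.05 over 15173 genes. Probe set levels of different genes are not compared. The 4 ARP1 arrays had medians between 5.332 and 5.364 and correlated with each other at Pearson r from 0.9871 to 0.9932 across probe sets.

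The ARP1 arrays carried the plasma cell identity that their label implies. All 10 plasma cell markers were at 6 or more on all 4 arrays, with a summed level of 113.45 to 114.23 without LenDex and 109.99 to 111.87 with it. None of the T cell, monocyte and macrophage or fibroblast markers reached 6 on all arrays, and PAX5 did among the B cell markers, KRT18 among the epithelial and HBG1, at up to 12.4, among the erythroid ones. The 8 arrays labelled JJN3 and RPMI-8226 carried that identity only in part. SDC1, the plasma cell surface proteoglycan CD138, was at 4.96 to 5.79 on those without LenDex against 12.23 and 12.26 in ARP1, while the B cell antigen gene MS4A1 (CD20) was at 11.7 to 12.06 against 4.7 and 5.18. The other plasma cell markers were mixed under both labels. The mean level of IRF4 was 12.71 in JJN3 and 12.95 in RPMI-8226 against 12.05 in ARP1. That of XBP1 was 10.51 and 10.47 against 12.75, and that of MZB1 10.53 and 10.27 against 11.94. POU2AF1 averaged 9.17 and 8.57 against 9.44, and SLAMF7 8.57 and 7.45 against 9.11. Far below ARP1 were PRDM1, at 5.43 and 5.38 against 11.31, and CD38, at 6.03 and 5.72 against 9.12. So were TNFRSF17, at 7.01 and 7.81 against 11.48, and JCHAIN, at 8.15 and 5.08 against 13.16. The immunoglobulin gene IGKC was at 9.32 on the JJN3 control array against at most 5.55 on the other JJN3 arrays, and counts without that array are given below. Across probe sets the arrays labelled JJN3 correlated with those labelled RPMI-8226 at r from 0.966 to 0.982, close to the 0.977 to 0.989 among the RPMI-8226 arrays, against at most 0.909 between either label and ARP1. The names are therefore used as labels of arrays, and the other lines may not be independent of each other in the spread or in the line difference. In the ARP1 test these 8 arrays set the spread between pairs, and they also entered the choice of probe set and the level filter. With a filter on the ARP1 arrays 226 genes were called.

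With LenDex a limited set of genes moved strongly in ARP1, and the largest rise was that of the glucocorticoid target TSC22D3. In limma 120 genes rose (0.791% of those tested) and 95 fell (0.626%), and all 215 moved the same way in both pairs. This agreement was largely set by the test, since pairs that disagree lower the mean and widen the error. Among called genes 71 rose at least 2-fold on average and 22 fell as far, and 21 rose at least 4-fold while none fell as far, with folds understated where a level nears the low end of the arrays. In both pairs separately 63 genes were at least 2-fold higher (0.415%) and 15 at least 2-fold lower (0.0989%), and 59 and 14 of these were called. Over all genes the median change was -0.03 in the pair without CPI203 and -0.01 in the pair with it. An unadjusted p under 0.05 was reached by 2349 genes. The count depended on the arrays of the other lines through the estimate of spread. It was 86 without the JJN3 control array (66 rises and 20 falls), 116 without the RPMI-8226 arrays (78 and 38) and 23 from the ARP1 arrays alone (22 and 1). The balance of rises and falls turned with the setting, at 156 rises and 188 falls among genes with a mean level of 6 or more and at 336 and 599 in a fit with a variance trend and robust moderation.

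**Figure D1:**
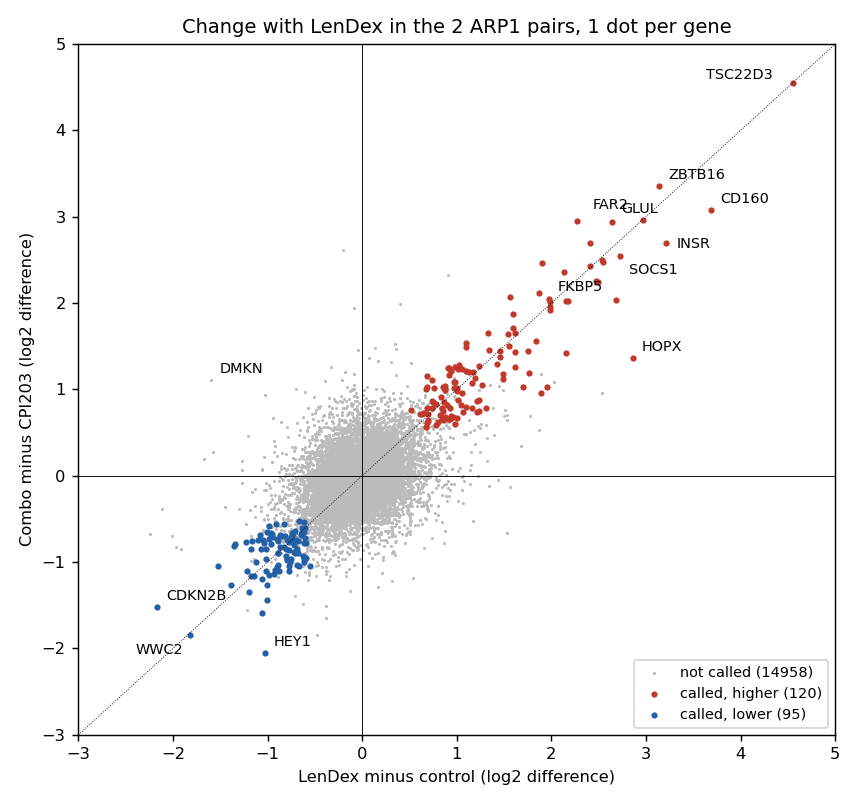
Each dot is 1 of the 15173 genes tested, placed by its log2 change with LenDex in the ARP1 pair without CPI203 (x axis) and in the pair with CPI203 (y axis); red and blue dots are genes called higher (120) and lower (95), grey dots are not called and the dotted line marks equal change. TSC22D3 lies at 4.55 on both axes, and the called genes lie in the quadrants of same-direction change, which the test favours.

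TSC22D3, or GILZ, a leucine zipper protein that mediates part of the anti-inflammatory action of glucocorticoids, had the largest rise. Its level was 7.59 in control cells and 7.53 with CPI203, and 12.14 with LenDex and 12.09 with Combo. Both arrays with LenDex were far above both without it, by 4.55 in each pair, a 23.4-fold rise (4.55 ± 0.11 SE, limma adjusted p = 3.61e-05). All 3 of its probe sets were called, with changes from 4.32 to 4.58.

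CD160, which encodes a glycoprotein best known on natural killer and T cells, followed. Its levels were 6.11 and 5.62 without LenDex, in control cells and with CPI203, and 9.8 and 8.7 with it. The groups did not overlap, and the mean change was a 10.5-fold rise (3.39 ± 0.16, limma adjusted p = 0.000505). ZBTB16, the transcription factor PLZF and a known glucocorticoid target, went from 5.21 and 5.02 to 8.35 and 8.37, a 9.47-fold rise (3.24 ± 0.15, limma adjusted p = 0.000505). Its levels without LenDex lay at the low end of the arrays, where a fold change is understated.

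GLUL, the enzyme glutamine synthetase, was at 9.4 and 9.15 without LenDex and at 12.04 and 12.09 with it, a 6.92-fold rise (2.79 ± 0.12, limma adjusted p = 0.000505). The insulin receptor gene INSR went from 6.92 and 7.16 to 10.14 and 9.86 (2.95 ± 0.19). All 5 INSR probe sets were called, with changes from 1.27 to 3.29. GRB14, an adaptor that binds and inhibits the insulin receptor, went from 6.54 and 6.36 to 9.08 and 8.84. Its change of 2.51 had a larger error (SE 0.33, limma adjusted p = 0.0225), although the ARP1 pairs were close, at 2.54 and 2.48. The error is pooled over the lines, and the pairs differed in JJN3 (-0.9 and 0.17) and RPMI-8226 (-1.37 and -0.14). The GRB14 call was lost when either pair was used alone and held from the ARP1 arrays alone. FAR2, a fatty acyl-CoA reductase, went from 5.87 and 5.11 to 8.83 and 8.06 (2.96 ± 0.17). DDIT4 (REDD1), a stress-induced inhibitor of mTORC1, went from 11 and 11.21 to 13.53 and 13.71, a 5.71-fold rise.

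SOCS1, a feedback inhibitor of cytokine receptor signalling through JAK kinases, was at 5.43 and 5.44 without LenDex and at 8.15 and 7.98 with it (2.63 ± 0.16, limma adjusted p = 0.000991). CXCR4, the chemokine receptor that holds plasma cells in the bone marrow, went from 8.17 and 8.1 to 10.58 and 10.79, a 5.86-fold rise (2.55 ± 0.12). All 4 CXCR4 probe sets were called. SPAG4, a SUN-domain protein of the nuclear envelope, went from 7.88 and 7.46 to 10.15 and 10.41 (2.61 ± 0.16), and was not called from the ARP1 arrays alone (adjusted p = 0.071). KLF9, a Krüppel-like transcription factor induced by glucocorticoids, went from 7.26 and 6.98 to 9.66 and 9.41 (2.42 ± 0.14). Of its 3 probe sets tested 2 were called and 1 stood at -0.01. The mean of its probe sets gave 1.17 in place of 2.42, and for GLUL 1.77 in place of 2.79. SNX30, a sorting nexin, was at 6.51 and 6.44 without LenDex and at 8.98 and 8.7 with it (2.36 ± 0.11, limma adjusted p = 0.000505).

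**Figure D2:**
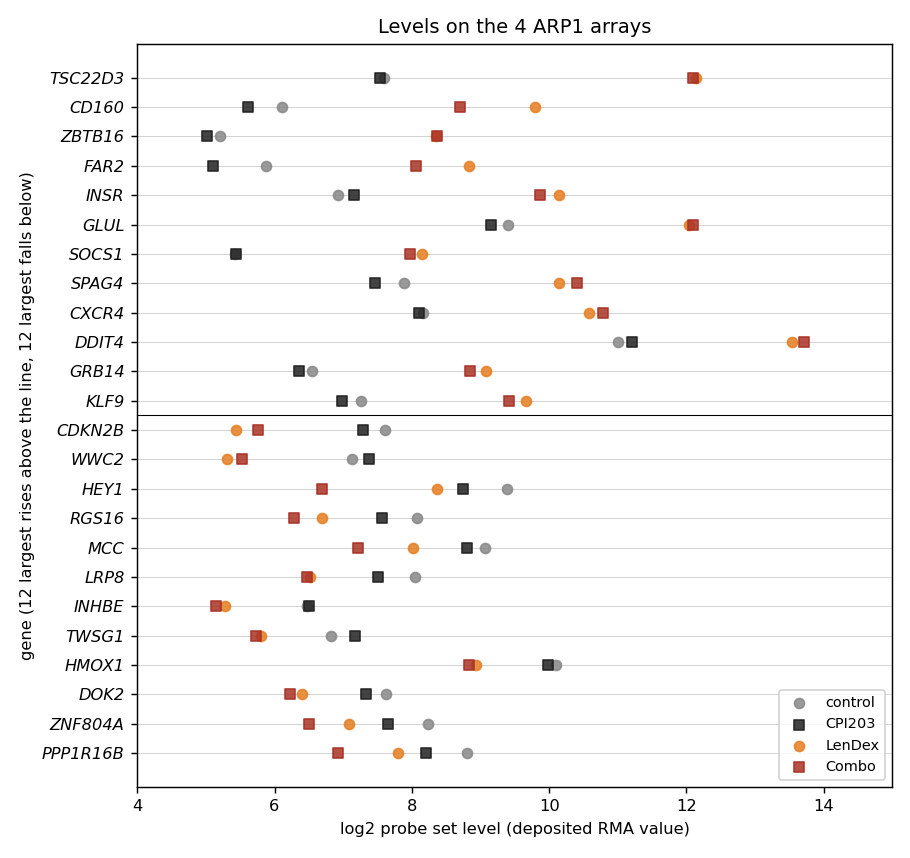
Log2 probe set levels (x axis) on the 4 ARP1 arrays for the 12 genes with the largest rises and the 12 with the largest falls among called genes (y axis); circles are the arrays without CPI203, squares those with it, grey and black without LenDex, orange and red with it. In each row the orange and red marks lie on the same side of both the grey and the black mark. The genes were picked by their change on these arrays, so this separation was largely set by the choice.

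Among the genes that fell, CDKN2B, which encodes the CDK4 and CDK6 inhibitor p15, was at 7.61 and 7.29 without LenDex and at 5.44 and 5.76 with it, 3.59-fold lower (-1.85 ± 0.19, limma adjusted p = 0.01). WWC2, a scaffold protein of the Hippo pathway, was at 7.13 and 7.37 without LenDex and at 5.31 and 5.52 with it (-1.84 ± 0.10, limma adjusted p = 0.000659). Of its 4 probe sets 1 was called, and they ranged from -1.84 to 0.16. HEY1, a transcriptional repressor downstream of Notch, fell in both pairs but by different amounts. It was at 9.39 and 8.74 without LenDex and at 8.36 and 6.69 with it, a change of -1.03 without CPI203 and of -2.05 with it (mean -1.54 ± 0.23, limma adjusted p = 0.0306).

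RGS16, which shortens G protein signals, was at 8.08 and 7.57 without LenDex and at 6.69 and 6.29 with it (-1.33 ± 0.11). The adaptor DOK2 changed by -1.16 ± 0.10, LRP8, a receptor for reelin and apolipoprotein E, by -1.28 ± 0.14, and MCC, a regulator of Wnt signalling, by -1.32 ± 0.18. INHBE, a subunit of activin of the TGF-β family, was at 6.48 and 6.5 without LenDex and at 5.28 and 5.15 with it (-1.27 ± 0.12, limma adjusted p = 0.00753). With LenDex CDKN2B, WWC2 and INHBE lay near the array medians, so their falls are understated and their rank among the falls is not settled. TWSG1, an extracellular modulator of BMP signals, changed by -1.23 ± 0.15, the zinc finger gene ZNF804A by -1.15 ± 0.13 and PPP1R16B, a regulatory subunit of protein phosphatase 1, by -1.14 ± 0.13. HMOX1, the heme oxygenase gene, was at 10.1 and 9.98 without LenDex and at 8.93 and 8.83 with it (-1.16 ± 0.19, limma adjusted p = 0.0412), and all 3 of its probe sets were called.

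Several of these falls rested on the other lines' arrays or on the choice of probe set. Without the JJN3 control array HEY1 (adjusted p = 0.0795), TWSG1 (0.0587) and HMOX1 (0.102) were not called, and without the RPMI-8226 arrays HEY1 (0.0662) and MCC (0.0587) were not. The mean of a gene's probe sets gave -1.02 for CDKN2B, -0.68 for WWC2, -0.71 for RGS16, -0.68 for MCC, -0.69 for TWSG1 and -0.72 for PPP1R16B. From the ARP1 arrays alone WWC2 was the 1 gene called lower.

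Of 34 genes listed as glucocorticoid-induced, 32 were tested, and 13 rose and none fell, against 0.791% higher and 0.626% lower of all genes tested. The list was drawn up with earlier results of these data known, so this comparison is a description. The median change of the list was 0.49, against -0.02 over all genes tested, and 25 members were higher in both pairs. The members that rose were TSC22D3, ZBTB16, GLUL, CXCR4, DDIT4, KLF9, FKBP5, SESN1, TXNIP, BCL2L11, NFKBIA, ZFP36L2 and MT2A. The count was 12 without the JJN3 control array, 11 without the RPMI-8226 arrays and 7 from the ARP1 arrays alone. With the variance trend 17 were higher and 1 lower, against 336 and 599 of all 15173 genes tested.

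FKBP5, a co-chaperone that lowers the receptor's affinity for its hormone, was at 10.7 and 10.73 without LenDex and at 12.67 and 12.78 with it, a 4.02-fold rise (2.01 ± 0.10, limma adjusted p = 0.000571). Of its 6 probe sets 5 were called, with changes from 0.19 to 2.91. NFKBIA, the inhibitor of NF-κB, went from 8.65 and 8.64 to 9.63 and 9.73, a 2.05-fold rise (1.03 ± 0.10, limma adjusted p = 0.00753). TXNIP, an inhibitor of thioredoxin and of glucose uptake, went from 11.13 and 11.39 to 12.36 and 12.65 (1.25 ± 0.12). SESN1, a sestrin that restrains mTORC1 and also a p53 target, went from 9.03 and 9.31 to 10.52 and 10.48 (1.33 ± 0.13). ZFP36L2, an RNA-binding protein that speeds mRNA decay, rose by 1.02 ± 0.15, and the metallothionein gene MT2A, which has near-identical relatives, by 0.94 ± 0.11. The calls of MT2A without the JJN3 control array (adjusted p = 0.0502) and of ZFP36L2 without the RPMI-8226 arrays (0.0615) were lost.

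BCL2L11, which encodes the pro-apoptotic BH3-only protein BIM, was at 7.41 and 8.09 without LenDex and at 8.64 and 8.97 with it. The groups did not overlap, and the rise was 2.08-fold (1.05 ± 0.15, limma adjusted p = 0.027). Without the RPMI-8226 arrays the adjusted p was 0.06. It was the 1 called gene of the 16 BCL2 family genes tested, whose median change was 0.15. Of all genes tested 0.791% were called higher and 0.626% lower.

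Other well known glucocorticoid targets did not pass the test in ARP1. PER1, a circadian clock gene, stood at 0.35 ± 0.30, the kinase gene SGK1 at 0.49 ± 0.23 and the MAP kinase phosphatase gene DUSP1 at -0.16 ± 0.24. FOXO1 and FOXO3, forkhead transcription factors, stood at 0.77 ± 0.17 and 0.55 ± 0.12. CEBPB, a leucine zipper transcription factor, had the lowest value of the list at -0.44 ± 0.14. PER1 was between 5.19 and 5.87 and DUSP1 between 5.28 and 5.63 on the 4 arrays, close to the array medians.

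**Figure D3:**
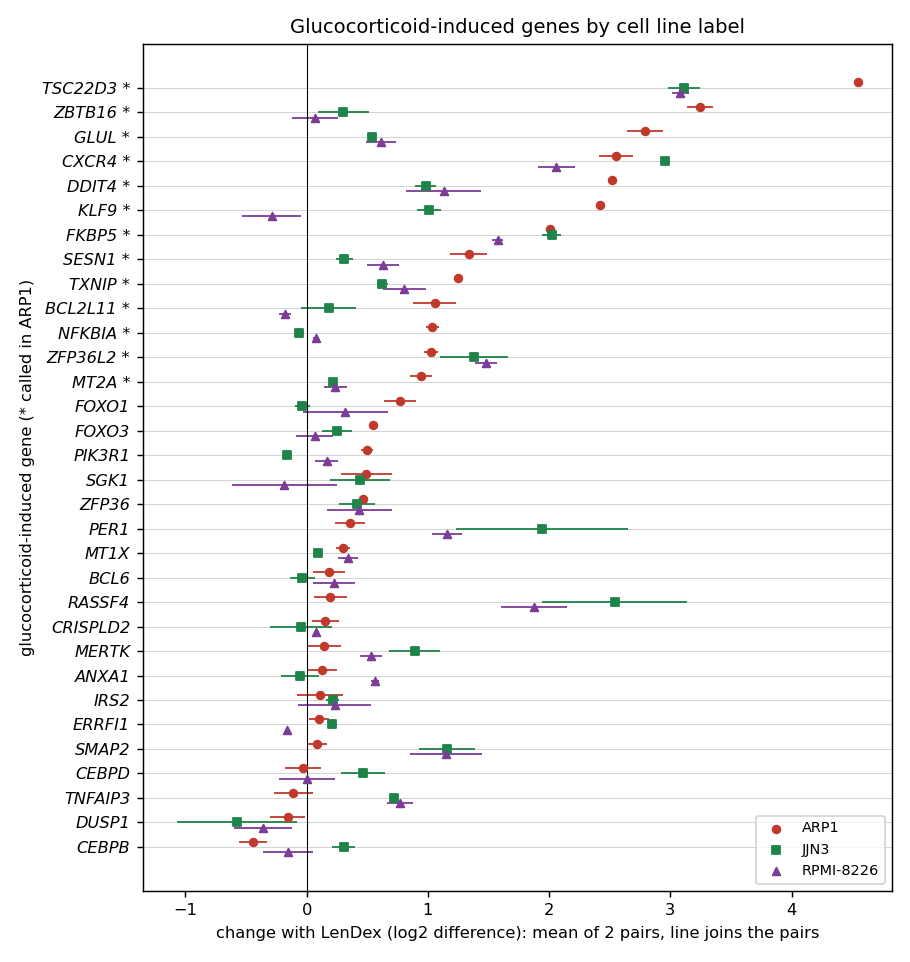
Log2 change with LenDex (x axis) for the 32 glucocorticoid-induced genes tested (y axis, those called in ARP1 with an asterisk), as the mean of the pair without and the pair with CPI203, with a line joining the pairs; red circles are ARP1, green squares JJN3 and purple triangles RPMI-8226. TSC22D3 is at 4.55 in ARP1 and at 3.11 and 3.08 in the others, and RASSF4 is at 0.19 in ARP1.

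Promoter sequences are shown for a pair of these genes that rose, because both hold a forkhead motif and 1 also a form of the receptor's own motif. They are the 250 bases before a start site, 5′ to 3′, from RefSeq (GRCh38.p14). The TSC22D3 stretch is chrX:107717063-107717312 on the minus strand, 1 of 4 start sites listed, and the TXNIP stretch is chr1:145996580-145996829 on the minus strand, 1 of 2. Capitals mark TGTTTAC, the forkhead core, on either strand in both genes, and in TXNIP also the more distal GNACANNNTGTNC, a degenerate form of the palindrome bound by the glucocorticoid receptor.
TSC22D3: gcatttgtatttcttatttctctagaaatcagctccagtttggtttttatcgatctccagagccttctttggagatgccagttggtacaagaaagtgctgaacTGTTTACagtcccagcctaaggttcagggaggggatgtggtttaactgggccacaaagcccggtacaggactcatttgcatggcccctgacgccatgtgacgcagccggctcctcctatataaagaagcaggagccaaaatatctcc
TXNIP: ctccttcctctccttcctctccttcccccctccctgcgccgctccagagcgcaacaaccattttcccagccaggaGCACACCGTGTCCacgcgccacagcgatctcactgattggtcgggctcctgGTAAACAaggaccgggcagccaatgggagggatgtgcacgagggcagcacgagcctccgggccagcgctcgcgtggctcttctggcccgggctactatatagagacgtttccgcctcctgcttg

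At the start sites shown, the forkhead core starts 147 bases upstream in TSC22D3 and 124 bases upstream in TXNIP. The core was absent from the 250 bases before the other start sites listed for these genes. In windows of 300 bases around start sites (250 before and 50 after), it was present in 9 of 156 windows of genes that rose (5.77%), in 1 of 125 windows of genes that fell (0.8%) and in 473 of 17568 windows of all genes tested (2.69%). The 9 genes were TSC22D3, TXNIP, BCL2L11, CCND3, PIK3IP1, ARID5B, SP100, FRAT1 and CTTNBP2. The windows covered 99 of the genes that rose, 77 of those that fell and 12193 of all tested. The glucocorticoid receptor half-site AGAACA was in 12.2% of windows of genes that rose, 8.0% of those that fell and 10.9% of all. The degenerate palindrome GNACANNNTGTNC was in 1.28%, 0.8% and 0.313%, and AGAACANNNTGT in 0.641%, 0.0% and 0.194%. The full palindrome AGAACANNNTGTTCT was in none of the 17568 windows. The shorter forkhead form GTTTAC, which lies within TGTTTAC, was in 7.69%, 2.4% and 6.21%. The E-box CACGTG was in 10.3%, 10.4% and 8.73%, and the NF-κB type motif GGGANNNCCC in 9.62%, 11.2% and 9.3%. These 8 motifs were searched on both strands after the expression values were known, and a match is a description of the letters alone.

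Transcripts of the receptors and the ligase through which both drugs act did not pass the test. NR3C1 was at 9.76 and 9.86 without LenDex and at 9.79 and 9.72 with it (-0.05 ± 0.10, limma adjusted p = 0.871). All 10 of its probe sets had negative changes, from -0.59 to -0.05, with none called, and their mean was -0.21 (adjusted p = 0.241). None of the 14 receptor machinery genes tested, among them the HSP90 chaperones and coactivators, was called, with a list median of -0.12 and 11 of them lower in both pairs. FKBP4, a co-chaperone that aids receptor transport, stood at -0.41 ± 0.15, and the coactivator genes MED1, NCOA1 and EP300 at -0.33, -0.24 and -0.21. FKBP4 (adjusted p = 0.0352) and MED1 (0.0432) were called lower in the fit with a variance trend. The cereblon gene CRBN was at 6.91 and 6.63 without LenDex and at 7.06 and 6.77 with it (0.15 ± 0.17).

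Transcripts of lenalidomide's protein targets were likewise not called. IKZF1 was at 9.94 and 9.64 without LenDex and at 9.89 and 9.57 with it (-0.06 ± 0.15, limma adjusted p = 0.897). IKZF3 was at 9.01 and 8.81 without LenDex and at 8.89 and 8.4 with it (-0.27 ± 0.14, limma adjusted p = 0.428). None of the 14 cereblon ligase and neosubstrate genes tested was called, with a list median of -0.04. In this list UBE2G1, a ubiquitin-conjugating enzyme, stood at -0.39 ± 0.13, the cullin gene CUL4B at 0.33 ± 0.12 and the zinc finger substrates ZNF692 and ZFP91 at 0.41 ± 0.19 and -0.26 ± 0.12.

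Downstream of Ikaros and Aiolos, both arrays with LenDex were below both without it for IRF4 and MYC, without passing the test. IRF4, a transcription factor on which myeloma cells depend, was at 12.26 and 12.17 without LenDex and at 11.83 and 11.92 with it (-0.34 ± 0.10, limma adjusted p = 0.188). MYC was at 12.35 and 12.03 without LenDex and at 11.98 and 11.64 with it (-0.38 ± 0.12, limma adjusted p = 0.195). Each passed in the fit with a variance trend and robust moderation, at an adjusted p of 0.000281 for IRF4 and 0.00271 for MYC.

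MYC target and ribosome biogenesis genes lay slightly lower as a list, with 1 called member, against 0.626% called lower of all genes tested. Of 33 tested, 32 were lower in both pairs, against 5089 of the 15173 genes tested. The list median was -0.27, and it was -0.34 in JJN3 and -0.35 in RPMI-8226. The called member was WDR43, a factor of small ribosomal subunit assembly, at 9.19 and 9.07 without LenDex and at 8.58 and 8.42 with it (-0.63 ± 0.10, limma adjusted p = 0.0385). It was not called without the JJN3 control array (adjusted p = 0.0956) or without the RPMI-8226 arrays (0.0642). The RNA polymerase I subunit genes POLR1B and POLR1A stood at -0.59 ± 0.10 and -0.47 ± 0.12, and PPAN, a ribosome biogenesis factor, at -0.58 ± 0.12. With a variance trend and robust fit 15 members were called lower, against 599 of all 15173 genes tested.

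Plasma cell genes did not pass the test, and some stood lower. SLAMF7, the surface antigen targeted by elotuzumab, was at 9.57 and 9.39 without LenDex and at 9.06 and 8.43 with it (-0.74 ± 0.19, limma adjusted p = 0.123). POU2AF1, a coactivator of immunoglobulin genes, stood at -0.61 ± 0.15 and the transcription factor gene MEF2C at -0.56 ± 0.14. DERL3, a factor of ER-associated degradation, stood at 0.40 without CPI203 and at 1.99 with it, and the array with CPI203 alone was the lowest of the 4 at 7.16. None of the 20 plasma cell genes was called, with a list median of -0.11. The variance trend gave 1 higher and 4 lower, against 336 and 599 of all 15173 genes tested.

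MAF and cyclin D genes gave 1 rise and 1 fall among the 8 tested, against 0.791% higher and 0.626% lower of all genes tested. MAF, a transcription factor that is an oncogene in myeloma, was high on all 4 arrays, at 11.45 and 11.43 without LenDex and at 10.95 and 10.87 with it (-0.53 ± 0.17, limma adjusted p = 0.217). Its targets in myeloma include CCND2, ITGB7 and CCR1. CCND2 stood at -0.37 ± 0.16 and the integrin gene ITGB7 at -0.46 ± 0.16. CCR1, a chemokine receptor, was at 8.56 and 7.55 without LenDex and at 7.57 and 6.4 with it (-1.07 ± 0.12, limma adjusted p = 0.0152). Its groups overlapped across CPI203 status, since the LenDex array was as high as the CPI203 array, while each pair fell by about the same amount, -0.99 and -1.15. CCND3, the gene of cyclin D3, was at 8.99 and 8.79 without LenDex and at 10.33 and 10.43 with it, a 2.81-fold rise (1.49 ± 0.19, limma adjusted p = 0.0215). The mean of its probe sets gave 0.79. Without the JJN3 control array CCR1 (adjusted p = 0.0522) and CCND3 (0.0579) were not called.

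Oxidative stress genes gave 2 falls among the 15 tested on the NRF2 list and no rise, against 0.791% higher and 0.626% lower of all genes tested, with a median of -0.29. The variance trend gave 5 falls, against 599 among all 15173 genes tested. Beside HMOX1, NFE2L2, the gene of NRF2 itself, was at 10.59 and 10.36 without LenDex and at 9.87 and 9.48 with it (-0.80 ± 0.10, limma adjusted p = 0.0219). Neither was called without the JJN3 control array (adjusted p = 0.0629 for NFE2L2), and NFE2L2 was not called without the RPMI-8226 arrays (0.0516). SQSTM1, the autophagy receptor p62, stood at -0.44 ± 0.10 and SRXN1, a sulfiredoxin, at -0.58 ± 0.13.

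Cell cycle and p53 lists are read against the background of 0.791% higher and 0.626% lower among all genes tested. Beside CDKN2B none of the 6 CDK inhibitor genes tested was called, and none of the 18 G1/S or the 18 G2/M genes. CDKN1A, which encodes p21, was at 7.18 and 5.37 without LenDex and at 8.09 and 7.69 with it (1.61 ± 0.30, limma adjusted p = 0.0621). Most of its larger change of 2.32 in the pair with CPI203 came with the low level on the CPI203 array. Of 16 p53 targets tested 2 rose, SESN1 and TP53INP1, a stress-induced regulator of autophagy and apoptosis (0.97 ± 0.14, limma adjusted p = 0.0286). TP53INP1 was not called without the JJN3 control array (0.0608), without the RPMI-8226 arrays (0.0614) or with the mean of its probe sets, which gave 0.50. CDC25A, a phosphatase that drives entry into S phase, stood at -0.59 ± 0.11.

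Inflammatory, interferon, stress and sterol lists had 1 call between them, against a background of 0.791% higher and 0.626% lower, and more calls in the fit with a variance trend. Over all 15173 genes tested, the fit with the trend also called more, 336 higher and 599 lower. That fit gave 1 higher and 3 lower on the NF-κB list, 3 and 0 on the interferon list, 1 and 6 on the unfolded protein and integrated stress response list, 0 and 6 on the cholesterol synthesis list and 5 and 2 on the immediate early list. Of 18 NF-κB genes tested NFKBIA rose and none fell. CCL3, a chemokine gene, stood at -2.24 without CPI203 and at -0.67 with it, and RELB, an NF-κB subunit, at -0.95 ± 0.24. None of 26 interferon-stimulated genes was called (median 0.02), and PARP9 stood at 1.14 ± 0.23. None of 21 unfolded protein and integrated stress response genes was called (median -0.18), with SEL1L, a component of ER-associated degradation, at -0.56 ± 0.10 (limma adjusted p = 0.0535). None of 13 cholesterol synthesis genes was called (median -0.31), and CYP51A1 and SQLE stood at -0.59 ± 0.11 each. Among 17 immediate early genes none was called (median 0.01), with JUN at 1.09 ± 0.23, KLF2 at 1.11 ± 0.25 and EGR1 at -0.74 ± 0.19. Of 19 migration receptor and adhesion genes CXCR4 rose and CCR1 fell, and S1PR1 stood at 0.52 ± 0.11.

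The response of ARP1 was then set against the mean response of the arrays labelled JJN3 and RPMI-8226. The difference was called in limma for 145 genes, 64 with a more positive change in ARP1 (0.422%) and 81 with a more negative one (0.534%), against 72 and 51 after cyclic loess. An unadjusted p under 0.05 was reached by 2148 genes. Of the 120 genes that rose in ARP1, 49 were also called as more positive, and of the 95 that fell 18 as more negative. The count of 145 was 28 without the JJN3 control array, 59 without the RPMI-8226 arrays and 51 when JJN3 and RPMI-8226 were averaged.

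CXCR4, FKBP5 and HMOX1 changed in ARP1 by amounts that did not differ detectably from the others. The CXCR4 change was 2.55 in ARP1 against 2.95 for JJN3 and 2.06 for RPMI-8226 (difference 0.04 ± 0.15, limma adjusted p = 0.937). That of FKBP5 was 2.01, 2.02 and 1.58 (difference 0.21 ± 0.13), and that of HMOX1 was -1.16, -1.42 and -1.76 (difference 0.43 ± 0.23). TSC22D3 was higher with LenDex by 3.11 in JJN3 and by 3.08 in RPMI-8226, which was less than in ARP1 (difference 1.46 ± 0.14, limma adjusted p = 0.01). In those arrays it started from a higher level, 9.57 to 9.98 without LenDex against 7.53 and 7.59 in ARP1, and it reached 12.57 to 13.22 with LenDex.

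Of the 8 genes named for the most positive difference, 4 were near the low end of the other arrays throughout. CD160 was between 4.79 and 5.38 on those 8 arrays, ZBTB16 between 4.74 and 5.25, SPAG4 between 4.59 and 5.32 and SNX30 between 4.69 and 5.16. The differences were 3.46 ± 0.20 for CD160 (limma adjusted p = 0.00412), 3.06 ± 0.18 for ZBTB16, 2.64 ± 0.20 for SPAG4 and 2.25 ± 0.14 for SNX30. GRB14 was above the low end in all lines and changed by 2.51 in ARP1 against -0.36 for JJN3 and -0.75 for RPMI-8226 (difference 3.07 ± 0.40, limma adjusted p = 0.0292). The falls in JJN3 and RPMI-8226 were in the pair without CPI203, at -0.9 and -1.37, against 0.17 and -0.14 in the pair with it. The 2 GRB14 probe sets changed by 1.02 and 2.51 in ARP1. INSR had changes of 2.95, 0.03 and 1.09 (difference 2.39 ± 0.24). Of the 32 glucocorticoid-induced genes tested, 6 were called as more positive in ARP1 and none as more negative, against 0.422% and 0.534% of all genes tested. The 6 were TSC22D3, ZBTB16, GLUL, DDIT4, KLF9 and NFKBIA. Some members stood the other way without a call, among them RASSF4 (-2.02 ± 0.34, limma adjusted p = 0.057) and SMAP2 (-1.07 ± 0.22, limma adjusted p = 0.0923). NFKBIA was at 12.43 to 13.41 on the other arrays without LenDex against 8.64 and 8.65 in ARP1.

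GPR183 and BHLHE22 were on this list for what the other arrays did. GPR183, a receptor that guides B cells within lymphoid tissue, was between 4.65 and 4.88 on the ARP1 arrays, at the low end. On the others it was at 8.43 to 9.07 without LenDex and at 5.9 to 7.06 with it. BHLHE22, a transcription factor gene, was between 4.57 and 5.34 in ARP1 and at 9.22 to 10.16 without and 6.89 to 8.64 with LenDex in the others. In ARP1 neither had a level from which a fall could be measured.

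For the 8 genes named for the most negative difference, the other arrays had higher levels with LenDex than without it. The genes were picked by that difference and by their level, so such a rise was largely set by the choice. None of the 8 was called in ARP1. CYTIP, a regulator of cytohesins and of leukocyte adhesion, had the largest such difference. It was at 9.62 and 9.55 without LenDex and at 9.27 and 9.02 with it in ARP1. On the other arrays it was at 5.68 to 7.32 without LenDex and at 9.37 to 10.95 with it (difference -4.21 ± 0.31, limma adjusted p = 0.00505). The steroid-metabolising aldo-keto reductase genes AKR1C1 and AKR1C2 were between 4.97 and 5.36 in ARP1, and had changes of 1.67 and 2.09 in JJN3 and of 3.25 and 3.12 in RPMI-8226. The glucuronosyltransferase genes UGT2B17, UGT2B7 and UGT2B15, whose enzymes conjugate steroids, had changes of 0.30, 0.61 and 0.74 in ARP1 against 2.90, 3.05 and 3.16 in JJN3 and 2.37, 2.27 and 2.35 in RPMI-8226. Members of both families have near-identical sequences, so their probe sets may share signal. OGFRL1 and TBC1D9, a Rab GTPase-activating protein gene, had differences of -2.09 ± 0.32 and -1.94 ± 0.12.

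**Figure D4:**
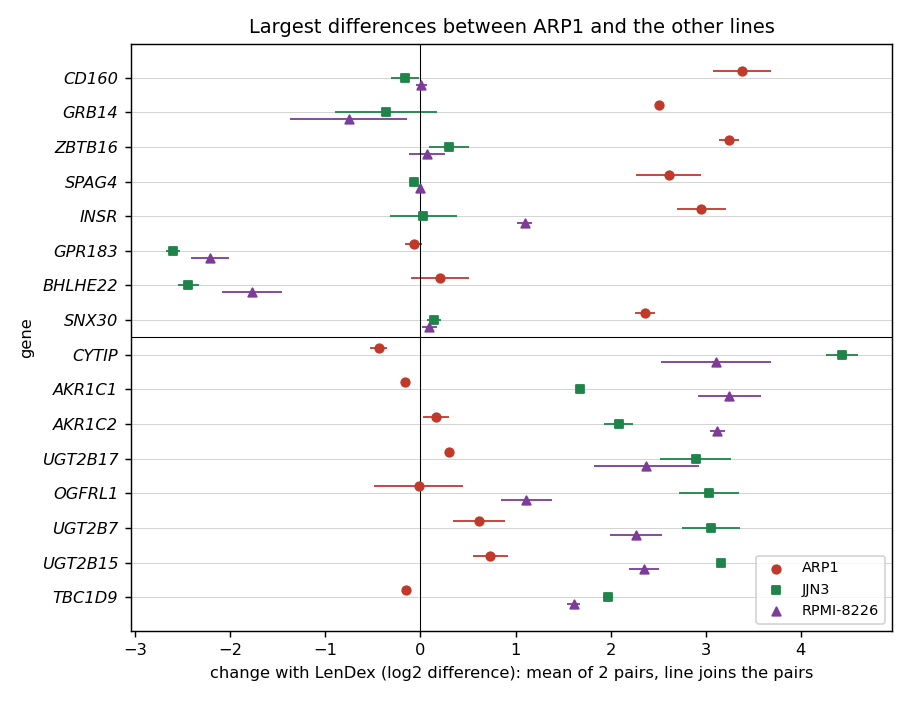
Log2 change with LenDex (x axis) for the 8 genes most positive and the 8 most negative in ARP1 relative to the other lines (y axis, above and below the horizontal line), as the mean of the pair without and the pair with CPI203, with a line joining the pairs; red circles are ARP1, green squares JJN3 and purple triangles RPMI-8226. CD160 is at 3.39 in ARP1 and near 0 in the others, and CYTIP is at -0.44 in ARP1 and at 4.43 and 3.11 in the others. The genes were taken among called differences at 6 or more on the higher side, in ARP1 or in the others.

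The pairs were also read one by one. At 2-fold or more, 120 genes were higher and 70 lower in the pair without CPI203, and 106 higher and 66 lower in the pair with it. The shared rises were 52.5% of the first and 59.4% of the second, and the shared falls 21.4% and 22.7%. Across the 15173 genes the changes in the pairs correlated at Pearson r = 0.46, where genes are not independent replicates. A difference between pairs has no replicate and no test.

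Among genes at 6 or more on at least 2 ARP1 arrays, the 5 widest differences between pairs in each direction belonged to genes of varied function. DMKN, a secreted epithelial protein gene, was the 1 gene 2-fold changed in opposite directions, at 6.83 in control cells, 5.23 with LenDex, 5.47 with CPI203 and 6.58 with Combo. ANKS6 stood at -1.03 without CPI203 and at 0.93 with it, ST8SIA2 at -1.58 and 0.28, the calcium channel gene RYR1 at -2.12 and -0.38, and the pseudogene WASH7P, which has near-identical copies, at -1.21 and 0.46. In the other direction CASK stood at 0.54 and -1.18, RBCK1 at 1.17 and -0.52 and SELENOM at 0.88 and -0.64. BACH2, a repressor of plasma cell differentiation, stood at 1.56 and -0.13, at 8.01 with LenDex against 6.24 to 6.46 on the other arrays. HOPX, a homeodomain cofactor, was called as a rise, with 2.86 without CPI203 and 1.36 with it (2.11 ± 0.31, limma adjusted p = 0.0317). It went from 5.02 to 7.88 and from 4.88 to 6.24. The call was lost without the JJN3 control array (adjusted p = 0.0791) and without the RPMI-8226 arrays (0.0732).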

How the data were processed

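Biotin-labelled cRNA from 12 samples was measured on single-colour Affymetrix arrays. The authors deposited log2 levels per probe set. The submitters' processing notes name RMA and Affymetrix Expression Console 1.1. The range of the values shows the log2 scale. Whether the arrays were normalised together is not given in the sources used here. RMA gives arrays processed together the same distribution, so a shift of all transcripts would not show. The number of arrays limits the precision.

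Of 49386 probe sets, 45253 had 1 gene symbol, 1327 several, 2713 none and 93 were controls. Symbols came from the platform annotation, updated through gene identifiers for 45172. The single-symbol probe set of highest mean over the 12 arrays stood for each of 18239 genes. Tests covered the 15173 genes that reached 5 on 3 arrays or more. All 12 arrays were fitted in limma 3.58.1 (R 4.3.3), with terms for line, CPI203 within line and LenDex within line, 3 residual and 3.75 prior degrees of freedom, two-sided tests and Benjamini-Hochberg adjustment. The code was tested on simulated data.

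The members, gene lists and named genes were chosen with earlier results of these data known, and the lists came from general knowledge. Named were the 12 largest rises and falls among called genes at 6 or more on both arrays of the higher side, a panel of genes, the 4 smallest p of each list, the 8 largest line differences each way and the 5 largest pair differences each way. The line differences were taken among called differences at 6 or more on the higher side, in ARP1 or in the others. The pair differences had the ARP1 level filter given with them. SDC1, MS4A1, IGKC and members of the glucocorticoid list beyond the first 4 were added after their values were seen. The alternatives were other filters, fits, scalings, probe set rules and subsets of arrays.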

Additional observations from a re-analysis of the deposited data

Results flagged for a closer look

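The results here were marked because the effect of LenDex in ARP1 differed from its mean in JJN3 and RPMI-8226 by the limma test of the difference (adjusted p under 0.05), which called 145 genes. Values are the ARP1 change minus the mean change of the other lines, on the log2 scale. Among genes that rose in ARP1 they were 3.46 for CD160, 3.07 for GRB14, 3.06 for ZBTB16, 2.64 for SPAG4, 2.39 for INSR, 2.25 for SNX30, 2.21 for GLUL, 2.05 for KLF9 and 2.03 for SOCS1. TSC22D3 and DDIT4 each stood at 1.46, FAR2 at 1.41 and NFKBIA at 1.03. Among genes that fell in ARP1 they were -1.78 for CDKN2B, -1.74 for WWC2, -1.31 for RGS16, -1.14 for PPP1R16B, -1.1 for CCR1, -1.06 for DOK2 and -0.99 for INHBE.

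Genes without a call in ARP1 also differed. GPR183 stood at 2.34 and BHLHE22 at 2.31, both near the low end of the ARP1 arrays. CYTIP stood at -4.21, AKR1C1 at -2.62, AKR1C2 at -2.44, UGT2B17 at -2.33, OGFRL1 at -2.09, UGT2B7 at -2.05, UGT2B15 at -2.02 and TBC1D9 at -1.94. The cyclin gene CCNE2 stood at -0.87 and RGS1, a regulator of G protein signals, at -1.3. The lines were not alike in lineage genes, and the part of that in these differences was not tested.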

How the results depend on the processing

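The count of 215 genes called in ARP1 was 23 from the ARP1 arrays alone, 86 without the JJN3 control array or without all JJN3 arrays (with 3 arrays that line has no spread left), 116 without the RPMI-8226 arrays, 55 from the pair without CPI203 and 29 from the pair with it, all fits with fewer arrays. It was 344 with a mean level of 6 or more, 935 with a variance trend and robust fit and 437 with probe sets tested singly. Of the 86, 82 were among the 215, and of the 935, 213. The 145 line differences were 51 with JJN3 and RPMI-8226 averaged, 28 without the JJN3 control array, 16 without JJN3, 59 without RPMI-8226, 36 and 16 from the pairs without and with CPI203, 218 with the stricter level and 550 with the variance trend. The 78 genes at least 2-fold in both pairs were 320 at 1.5-fold. Among 105 named genes (those of the pair differences left out), the 34 called kept their direction in the 12 or 13 alternatives run for each, and 13 of them their call. The estimate could change only with a single pair, cyclic loess or the mean of probe sets, so direction was fixed in the other alternatives. Reversed were uncalled values near 0, in NR3C1 (0.03 in the pair without CPI203, 0.00 after cyclic loess), BHLHE22 (-0.10 in the pair without CPI203), GPR183 (0.02 in the pair with CPI203), OGFRL1 (0.45 in the pair with CPI203, 0.02 after cyclic loess), and, with the mean of a gene's probe sets, IKZF1 (0.07), GPR183 (0.20), AKR1C1 (0.23), AKR1C2 (-0.02), OGFRL1 (0.03) and TBC1D9 (0.03). The cause was not tested. No paired analysis by replicate number was possible because each treatment of a line has 1 array. Levels near 5 are close to the background of the arrays.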

Other observations

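The other called genes in ARP1 given here were chosen after their values were seen. CFLAR, the caspase-8 inhibitor c-FLIP, was at 8.05 and 7.63 without LenDex, in control cells and with CPI203, and at 9.92 and 9.75 with it (a rise of 2.0 ± 0.11, limma adjusted p = 0.000659). IL6ST, the gp130 signalling chain of the interleukin-6 receptor, went from 10.08 and 9.99 to 11.69 and 11.42 (1.52 ± 0.11, limma adjusted p = 0.00287), while PIM2, a survival kinase of myeloma cells, fell from 10.04 and 9.71 to 8.92 and 8.71. ZC3H12A, the RNase regnase-1 that degrades inflammatory mRNAs, rose by 2.18 ± 0.17, and IFNLR1, the interferon lambda receptor, by 1.73 ± 0.18. PIK3IP1, an inhibitor of PI3 kinase, rose by 1.70 ± 0.15. Among nuclear factors the vitamin D receptor gene VDR rose by 1.16 ± 0.11 and ATF5, a stress-response factor, changed by -1.0 ± 0.10. TAP1, the peptide transporter of antigen presentation, rose by 1.13 ± 0.11. Each of these calls held without the JJN3 control array and without the RPMI-8226 arrays, that of PIM2 only narrowly without the former (limma adjusted p = 0.0499). The mean of a gene's probe sets gave 1.43 for CFLAR, 1.2 for PIK3IP1, 0.84 for VDR and -0.79 for ATF5. For IL6ST and TAP1 it gave 1.62 and 1.17, and it did not alter the changes of PIM2, ZC3H12A and IFNLR1. From the ARP1 arrays alone CFLAR was called (adjusted p = 0.0405), and the other 8 were not, at adjusted p from 0.0668 to 0.129.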
